A study of Mus musculus with 9 samples.

Results

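The matrix metalloproteases, the ADAMTS proteases and their TIMP inhibitors were taken as the protein-coding genes whose symbols begin with Mmp, Adamts or Timp followed by a digit. There were 45 such genes, 22 Mmp, 19 Adamts and 4 Timp, among 35675 genes measured. Their transcripts were followed in 9 poly-A RNA-seq libraries of embryonic mouse fibroblasts (MEFs), cells grown from embryonal tissue. All 9 came from the Dmdmdx genotype, which lacks full-length dystrophin and is used as a model of Duchenne muscular dystrophy, so no group here has a wild-type Dmd gene. The 3 groups of 3 libraries were untreated MEFs, MEFs given MyoD, and MEFs given MyoD with F/R/C, whose letters are left unexplained in the labels. MyoD is a transcription factor that can start the skeletal muscle programme in fibroblasts. The labels give neither the vector and promoter of MyoD nor an age, dose or time, and they do not say that the replicates were separate cultures. P-values therefore measure the spread between these libraries, which may be technical.

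Matrix metalloproteases are zinc enzymes, secreted or bound to the cell surface, that cut collagens, gelatin, laminin and other matrix proteins. ADAMTS proteases are secreted relatives that cut proteoglycans such as versican and aggrecan, trim the amino-terminal end of procollagens, or act on fibrillin microfibrils. TIMPs bind the active site of these enzymes and block it, and Timp3 also stays bound to the matrix and inhibits several ADAMTS proteases. In skeletal muscle the balance of enzyme and inhibitor is known to bear on the basement membrane, on myoblast migration and fusion, and on fibrosis in dystrophic muscle.

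Start-site sequences help to show how the members that could be matched divide. RefSeq promoter windows (GRCm38.p6, 250 bases before each start) matched 31 of the 45 genes by symbol. Of these, 9 are Mmp genes in 1 cluster on chromosome 9 (7272514 to 7699585, GRCm38), and 22 lie elsewhere. The 14 genes without a window all lie outside the cluster, among them Mmp2, Mmp9, Mmp16, Mmp17 and Mmp19. Counts outside the cluster therefore cover only part of the genes there. The 31 genes had 34 windows, and a gene was counted when any of its windows held a motif. Shares over all windows are per window. The AP-1 motif TGANTCA, which reads alike on both strands, was present in 7 of the 9 cluster genes and in 0 of the other 22. It was present in 6.75% of all 32851 windows of this length. The GC box GGGCGG, searched on both strands, was present in 0 of the 9 cluster genes, in 16 of the other 22, and in 32.7% of all windows. The TATA box TATAAA was found in 6 of the 9, in 2 of the other 22 (Adamts1 and Mmp21), and in 12.4% of all windows. A match is only a run of letters, and no binding was measured. The 120 bases before the first exon are given 5′ to 3′ on the gene's own strand for 6 of the 7 cluster genes with the AP-1 motif, since their pattern is the clearest, with the motif in capitals. Mmp12, the other one, has its match before the other of 2 starts.
Mmp3, chr9:7445702-7445821, plus strand: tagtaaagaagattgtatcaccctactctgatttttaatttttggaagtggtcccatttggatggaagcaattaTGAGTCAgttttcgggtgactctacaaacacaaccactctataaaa
Mmp10, chr9:7502222-7502341, plus strand: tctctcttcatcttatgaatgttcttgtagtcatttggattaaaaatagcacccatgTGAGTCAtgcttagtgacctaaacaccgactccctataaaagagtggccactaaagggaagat
Mmp13, chr9:7272394-7272513, plus strand: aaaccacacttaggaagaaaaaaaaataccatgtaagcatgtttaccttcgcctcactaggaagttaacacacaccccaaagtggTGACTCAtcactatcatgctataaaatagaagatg
Mmp1b, chr9:7388048-7388167, minus strand: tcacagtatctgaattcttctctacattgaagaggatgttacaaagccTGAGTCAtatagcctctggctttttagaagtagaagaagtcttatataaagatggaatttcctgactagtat
Mmp7, chr9:7691970-7692089, plus strand: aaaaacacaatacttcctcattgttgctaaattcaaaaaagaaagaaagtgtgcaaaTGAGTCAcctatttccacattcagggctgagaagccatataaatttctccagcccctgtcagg
Mmp20, chr9:7628111-7628230, plus strand: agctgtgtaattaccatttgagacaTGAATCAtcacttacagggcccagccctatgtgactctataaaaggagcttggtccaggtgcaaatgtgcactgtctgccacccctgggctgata

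The motif began between position -95 (Mmp20) and position -35 (Mmp13), counted back from the base before the RefSeq start. The next 4 windows belong to an inhibitor and 3 enzymes whose levels differed clearly between the groups, and capitals in them mark the GC box on either strand.
Timp1, chrX:20870046-20870165, plus strand: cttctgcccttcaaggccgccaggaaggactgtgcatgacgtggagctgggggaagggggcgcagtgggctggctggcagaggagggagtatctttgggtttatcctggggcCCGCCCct
Mmp14, chr14:54431478-54431597, plus strand: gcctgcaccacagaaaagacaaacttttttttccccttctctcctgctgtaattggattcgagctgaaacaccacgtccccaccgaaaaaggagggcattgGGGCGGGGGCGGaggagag
Mmp15, chr8:95352148-95352267, plus strand: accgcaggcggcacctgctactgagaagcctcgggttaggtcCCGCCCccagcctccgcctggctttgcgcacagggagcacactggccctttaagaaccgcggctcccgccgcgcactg
Adamts20, chr15:94404351-94404470, minus strand: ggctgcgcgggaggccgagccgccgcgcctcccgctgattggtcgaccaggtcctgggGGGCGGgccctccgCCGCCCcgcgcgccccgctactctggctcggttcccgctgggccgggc

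Of these 4 genes, Timp1 and Mmp14 were lower in MyoD F/R/C, and Mmp15 and Adamts20 were higher, so the GC box stands before genes of both directions. The windows of Timp2 and Timp3, both lower, also hold it, and are not printed. The RefSeq start used for Adamts20 is that of an internal GENCODE transcript and lies 61068 bases from the outermost start of the gene. The printed windows of Mmp1b and Mmp15 end at positions -22 and -29, where a GENCODE M21 exon begins, and none of the printed windows overlaps such an exon.

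Depth ranged from 21112071 to 24291056 estimated counts per library. A gene at 0 counts could have had up to 3, which is 0.113 to 0.144 CPM. CPM, the count divided by the library's TMM-scaled size, compares libraries for 1 gene, and TPM, which is also per length, compares genes. Summed over 14 markers, skeletal muscle transcripts took 6.40 to 733 CPM in MEF, 1329 to 4057 in MyoD and 44407 to 64481 in MyoD F/R/C. MEF replicate 3 held the 733 CPM and MyoD replicate 3 the 4057 CPM, the highest of their groups, so counts are also given without both. Summed over 14 markers, fibroblast transcripts took 22562 to 85069 CPM in MEF, 14150 to 38200 in MyoD and 7130 to 10648 in MyoD F/R/C, and none of the 14 was at 0 in any group. Most of the sum in MEF replicate 1 came from Col1a1, Col1a2 and Col3a1 (28485, 15339 and 32338 CPM of 85069). By the edgeR test below, 4 of the 14 were lower in MyoD F/R/C than in MEF and 3 lower than in MyoD, where 18.1% and 16.1% of all tested genes were. Their median log2 fold change against MEF was -1.41. Unlike that median, the mean of Dcn was no lower, at 218 CPM in MEF and 241 in MyoD F/R/C. Its libraries varied widely and overlapped (516, 49.2 and 88.1 CPM in MEF, and 251, 368 and 105 in MyoD F/R/C). The 12 macrophage and leukocyte markers summed to 6.64 to 22.4 CPM in MEF, 10.05 to 32.0 in MyoD and 14.2 to 30.1 in MyoD F/R/C. Of the 12, 4 had 0 counts in every MyoD F/R/C library (Adgre1, Fcgr1, Tyrobp and C1qa). Mitochondrially encoded transcripts took 0.819% to 1.10% of counts in MEF, 1.15% to 1.22% in MyoD and 1.54% to 3.09% in MyoD F/R/C. In such bulk RNA, fewer cells of a type and less RNA per cell cannot be told apart.

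A filter on low counts left 34 of the 45 genes for testing, 15 Mmp, 15 Adamts and all 4 Timp. The 11 others (Mmp1b, Mmp7, Mmp8, Mmp20, Mmp21, Mmp25, Mmp27, Adamts8, Adamts13, Adamts18 and Adamts19) were not tested. The highest among them was Adamts19, with 50 counts (2.28 CPM) in MyoD F/R/C replicate 2, and the other 10 had at most 8 counts in any library. Genes were called at an adjusted p under 0.05 (edgeR quasi-likelihood F test, Benjamini-Hochberg over all 15714 tested genes).

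MyoD alone was not followed by a called change in any of these genes. None of the 14 skeletal muscle markers was called either, although their median log2 fold change was 3.23. The lack of calls therefore does not show that MyoD alone left these genes unchanged. In MyoD against MEF, 0 of 34 were called, where 0.0% of all tested genes were, and 5 of the 34 had an unadjusted p under 0.05. DESeq2 called 1 of them, Adamts20, and 1.09% of all genes. With the replicate number as a block, edgeR called 0 of the 34 and 13 of all 15714 tested genes. In 2 of the 34, Adamts20 and Mmp15, the MyoD libraries all lay above all MEF libraries, and in none did they all lie below. Of all tested genes 7.52% did not overlap, 4.4% above and 3.11% below. Their log2 fold changes were 2.92 ± 0.51 (SE, adjusted p 0.192) and 1.09 ± 0.39 (adjusted p 0.86). In MyoD F/R/C, a separate group, both genes were called higher than in MEF and than in MyoD. The comparisons of the 2 groups with MEF share the MEF libraries, and a progression was not tested.

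With F/R/C, the members split. Against MEF, 18 of 34 were called, 5 higher and 13 lower, where 37.6% of all tested genes were called (19.5% higher and 18.1% lower). Against MyoD, 18 of 34 were called, 8 higher and 10 lower, where 33.9% of all tested genes were (17.8% higher and 16.1% lower). The libraries of the groups did not overlap in 24 of the 34 against MEF, 8 above and 16 below, where 53.2% of all genes did not (27.1% above and 26.0% below). Against MyoD 22 did not overlap, 10 above and 12 below, where 49.8% of all genes did not (26.6% above and 23.2% below). DESeq2 called 23 of the 34 in each comparison, where it called 42.7% and 39.7% of all genes. The median log2 fold change of the 34 was -1.11 against MEF and -0.91 against MyoD, beside -0.04 and -0.02 over all tested genes. The 2 comparisons share the MyoD F/R/C libraries and are not independent. Of the 18 calls, 14 held in all alternatives run against MEF, the exceptions being Adamts1, Adamts7, Mmp9 and Mmp17, and 12 held against MyoD, the exceptions being Adamts2, Adamts6, Adamts10, Adamts14, Adamts15 and Adamts16. Without MEF and MyoD replicates 3, a choice made after seeing the data, 26 were called against MEF (10 higher, 16 lower) and 22 against MyoD (10 higher, 12 lower).

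**Figure D1:**
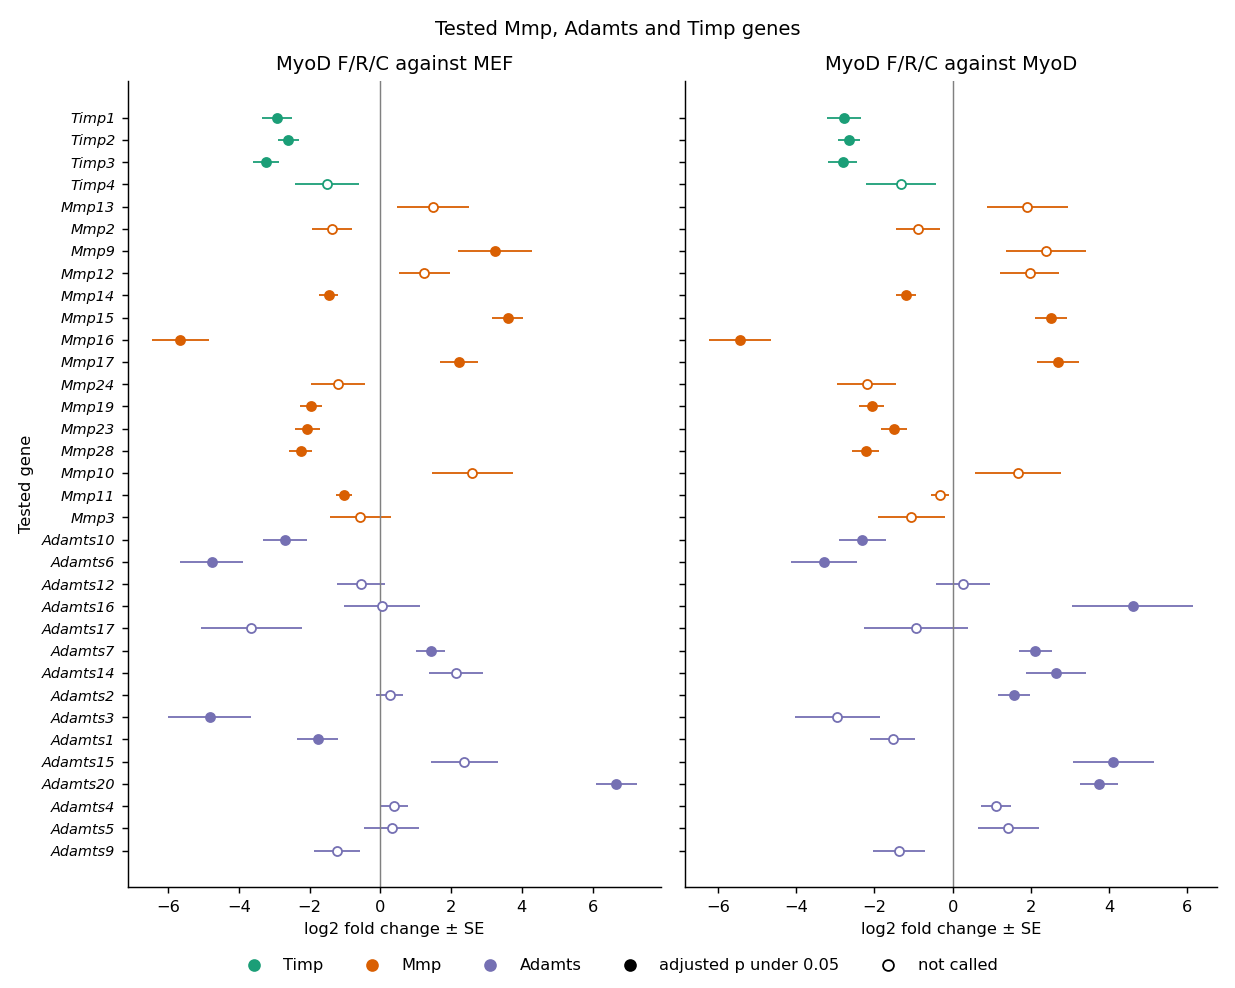
Log2 fold change ± SE (horizontal axis) of the 34 tested genes (vertical axis, coloured by family) in MyoD F/R/C against MEF (left) and against MyoD (right), with filled points for an adjusted p under 0.05. Timp1, Timp2 and Timp3 lie near -3 in both panels, while Mmp15, Mmp17 and Adamts20 lie right of 0 and filled in both, and the right-hand point of Adamts16 rests on at most 17 counts per library.

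The inhibitors fell together. Timp1, Timp2 and Timp3, the 3 abundant TIMPs, were called lower in MyoD F/R/C in both comparisons, 6.07-fold to 9.43-fold against MEF. Timp2, which also takes part in the activation of the Mmp2 proenzyme at the cell surface, stood at 3755, 3649 and 4490 CPM in MEF and 4431, 3357 and 4495 CPM in MyoD. In MyoD F/R/C it stood at 771, 676 and 512 CPM, so every such library was far below the 6 others. Its log2 fold change was -2.60 ± 0.29 against MEF (adjusted p 0.000568) and -2.65 ± 0.29 against MyoD (adjusted p 0.000789).

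Timp3, the matrix-bound inhibitor, stood at 2216, 1328 and 1568 CPM in MEF, at 1440, 708 and 1666 CPM in MyoD, and at 168, 189 and 186 CPM in MyoD F/R/C. The MyoD F/R/C libraries lay within a narrow range and did not overlap the others. Its log2 fold change was -3.24 ± 0.37 against MEF (adjusted p 0.00062) and -2.81 ± 0.37 against MyoD (adjusted p 0.0014). Timp3 lies inside Syn3 on the opposite strand and shares 21.3% of its exonic bases with it. Syn3 itself was measured at 0.673 to 2.45 CPM in MEF and MyoD and at 0.0480 to 0.137 CPM in MyoD F/R/C, and whether strand was used in counting was not given in the sources used here.

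Timp1, an inducible secreted inhibitor, stood at 625, 252 and 521 CPM in MEF and at 391, 248 and 636 CPM in MyoD. In MyoD F/R/C it was at 57.3, 61.0 and 66.9 CPM, below every other library. The log2 fold change was -2.92 ± 0.43 against MEF (adjusted p 0.00158) and -2.78 ± 0.43 against MyoD (adjusted p 0.00253). Timp4 was scarce throughout, at 0.241 to 2.86 CPM, its groups overlapped, and it was not called (adjusted p 0.214 against MEF and 0.285 against MyoD).

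**Figure D2:**
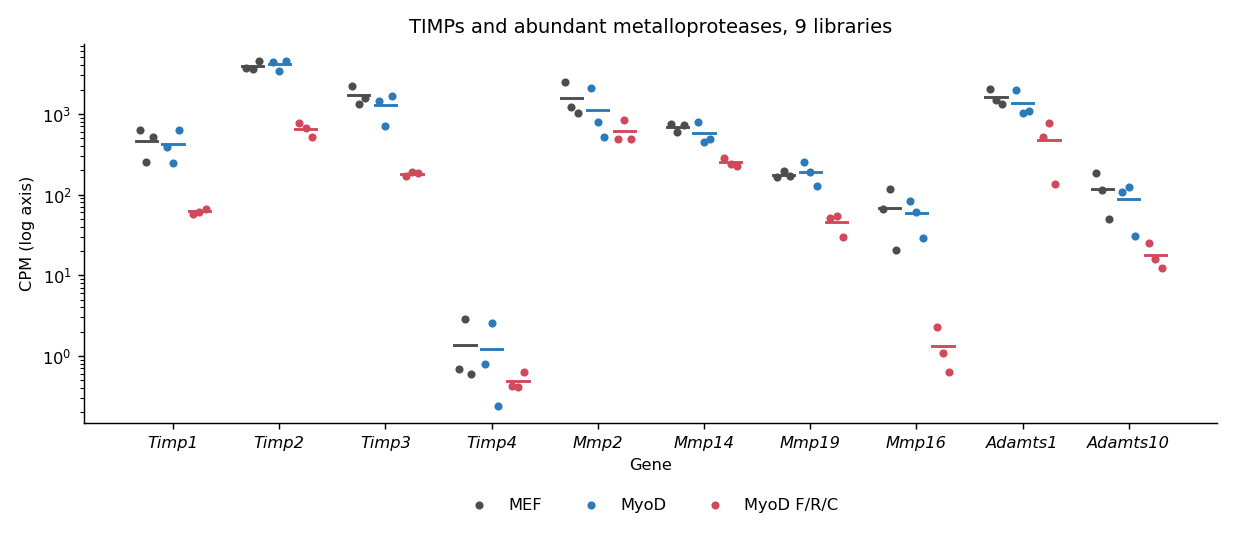
CPM per library (points, log axis) with group means (bars) for the 4 Timp genes and 6 abundant or lowered proteases in the 3 groups of 3 libraries. For Timp1, Timp2, Timp3, Mmp14, Mmp19, Mmp16 and Adamts10 all 3 MyoD F/R/C points lie below all 6 others, while Mmp2 and Timp4 overlap with MyoD.

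Among the membrane-bound metalloproteases, 2 fell and 2 rose in both comparisons. Mmp14, the main cell-surface collagenase and activator of the Mmp2 proenzyme, stood at 749, 593 and 729 CPM in MEF, 788, 443 and 488 in MyoD and 288, 237 and 226 in MyoD F/R/C. All 3 MyoD F/R/C libraries were below the other 6, with log2 fold changes of -1.46 ± 0.27 (adjusted p 0.00366) against MEF and -1.19 ± 0.26 (adjusted p 0.0101) against MyoD. Mmp16, a relative that also activates the Mmp2 proenzyme, had the largest fall of any tested member in both comparisons. It went from 65.7, 116 and 20.9 CPM in MEF and 84.4, 61.1 and 29.4 in MyoD to 2.27, 1.09 and 0.624 in MyoD F/R/C. Its log2 fold changes were -5.66 ± 0.80 (adjusted p 0.00132) and -5.44 ± 0.79 (adjusted p 0.00209). In MEF, 61.4% of its summed TPM was assigned to a transcript annotated for nonsense-mediated decay.

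Mmp15, another membrane-bound enzyme with a transmembrane anchor, moved in the opposite direction. It stood at 6.19, 19.6 and 17.0 CPM in MEF, at 25.9, 25.8 and 39.4 CPM in MyoD, and at 170, 205 and 143 CPM in MyoD F/R/C. The 3 groups did not overlap. The log2 fold change was 3.60 ± 0.43 against MEF (adjusted p 0.000686) and 2.51 ± 0.41 against MyoD (adjusted p 0.00314). Mmp17, an enzyme held to the membrane by a lipid anchor, stood at 0.884, 0.926 and 1.66 CPM in MEF, 0.895, 0.793 and 0.818 in MyoD, and 4.70, 2.37 and 9.22 in MyoD F/R/C. It was called in both comparisons, with log2 fold changes of 2.23 ± 0.53 (adjusted p 0.0118) and 2.69 ± 0.55 (adjusted p 0.00723), and without MEF replicate 2 the first had an adjusted p of 0.0512. Mmp24 stayed at or below 1.49 CPM and was not called, although its MyoD F/R/C libraries lay below all others (adjusted p 0.0525 against MyoD).

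The gelatinases cut denatured collagen and basement membrane collagen. Mmp2, the third most abundant member in MEF by TPM, stood at 2488, 1206 and 1027 CPM in MEF, 2073, 787 and 518 in MyoD and 487, 846 and 489 in MyoD F/R/C. The MyoD F/R/C libraries were below all of MEF but overlapped MyoD. Neither difference was called (log2 fold change -1.37 ± 0.56, adjusted p 0.0859 against MEF, and -0.89 ± 0.56, adjusted p 0.246 against MyoD). The difference from MEF was called by DESeq2 (adjusted p 0.0431) and by edgeR with the 2 groups alone (0.0455). It was also called without MyoD replicate 1 (0.0382) and without MEF and MyoD replicates 3 (0.0390). Most other alternatives left it uncalled. Mmp9, known as an inducible gelatinase of leukocytes and of regenerating muscle, stood at 9.07, 4.55 and 4.34 CPM in MEF, 27.7, 3.70 and 0.914 in MyoD, and 85.1, 28.4 and 56.1 in MyoD F/R/C. It was called against MEF (3.24 ± 1.06, adjusted p 0.0401) and not against MyoD (2.39 ± 1.02, adjusted p 0.1). The call against MEF was lost on leaving out any 1 of the 3 MEF or 3 MyoD F/R/C libraries (adjusted p 0.0525 to 0.119). Against MyoD, DESeq2 called Mmp9 higher (adjusted p 0.0260), as did edgeR without MyoD replicate 1 (0.00895). Most other alternatives left that comparison uncalled. Of the 12 leukocyte markers 6 were tested and 2 were called higher than MEF, where 19.5% of all tested genes were, and little is read from that count. The 2 were Itgam at 2.64 to 4.49 CPM against 0.0403 to 0.140 and Cd68 at 4.08 to 6.21 CPM against 1.48 to 2.51. Mrc1 was not among the calls, but its MyoD F/R/C libraries also lay above all of MEF (3.65 to 6.29 CPM against 0.242 to 2.23). Cd14 and Csf1r overlapped MEF. Beside the 4 at 0 in MyoD F/R/C, Ptprc was at most 0.0420 CPM there, and Lyz2 averaged 0.680 CPM against 2.47 in MEF. The part of leukocytes in the Mmp9 level was not tested.

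The stromelysins, collagenases and matrilysins are secreted enzymes, most of them encoded in the chromosome 9 cluster whose windows are printed above. Of the 9 cluster genes 4 were tested (Mmp3, Mmp10, Mmp12 and Mmp13) and 0 were called in any comparison. Of the 13 other Mmp genes 11 were tested, 9 were called against MEF and 7 against MyoD, where 37.6% and 33.9% of all tested genes were. Little can be read from 0 calls among 4 genes, and whether the cluster differs from the other Mmp genes was not tested. Mmp3, which cuts many matrix proteins and activates other proenzymes, varied more within groups than between them. It stood at 229, 682 and 171 CPM in MEF, 677, 765 and 80.3 in MyoD and 337, 313 and 81.3 in MyoD F/R/C. Replicate 3 was the lowest library in each of the 3 groups. The log2 fold changes were -0.56 ± 0.86 (adjusted p 0.636) against MEF and -1.06 ± 0.86 (adjusted p 0.369) against MyoD, and the first turned to 0.23 without MEF replicate 2.

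Mmp10, the other stromelysin of the cluster, stood at 0.140, 0.322 and 1.38 CPM in MEF, 0.0895, 0.491 and 2.98 in MyoD, and 4.99, 3.69 and 2.55 in MyoD F/R/C. It was not called against MEF (2.60 ± 1.15, adjusted p 0.106), but with the replicate number as a block, which pairs the MEF and MyoD F/R/C libraries, its adjusted p was 0.0315. Mmp13, the main interstitial collagenase of mice, reached 27.4 CPM in MyoD F/R/C replicate 1 but only 6.20 and 2.88 in the others, against 0.698 to 10.01 in MEF, and was not called (adjusted p 0.277). Mmp12, a macrophage elastase, stayed at or below 1.73 CPM (adjusted p 0.208 against MEF and 0.0742 against MyoD). Mmp11 lies outside the cluster and does not cut the usual matrix substrates. It fell from 50.5 ± 11.4 CPM in MEF to 24.7 ± 2.35 in MyoD F/R/C (SD, n = 3 each), a log2 fold change of -1.03 ± 0.24 (adjusted p 0.0102), and was not called against MyoD, where it averaged 30.9 ± 7.41 CPM (adjusted p 0.318). Mmp11 shares 5.58% of its exonic bases with Chchd10 on the opposite strand, which was at 24.9 to 33.3 CPM in MyoD F/R/C and at most 5.72 CPM elsewhere.

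Of the remaining metalloproteases, Mmp19, Mmp23 and Mmp28 were all called lower in both comparisons. Mmp19, which cuts basement membrane proteins, stood at 165, 197 and 169 CPM in MEF, 257, 189 and 126 in MyoD and 50.7, 55.0 and 30.2 in MyoD F/R/C. The log2 fold changes were -1.97 ± 0.31 (adjusted p 0.0021) and -2.07 ± 0.31 (adjusted p 0.00239). Mmp19 shares 22.3% of its exonic bases with Tmem198b on the opposite strand, which was at 30.5 to 45.6 CPM in MEF and MyoD and 19.5 to 23.2 CPM in MyoD F/R/C, and how the counts divide between them is uncertain. Mmp23, which is shed from the membrane when its proprotein is cut, fell from 68.5 ± 21.2 CPM in MEF and 46.3 ± 13.8 in MyoD to 16.4 ± 5.47 in MyoD F/R/C (SD, n = 3 each), which was 4.19-fold (adjusted p 0.0026) and 2.83-fold (adjusted p 0.0109). Mmp28, known as epilysin, fell from 14.4 ± 3.45 and 14.1 ± 2.23 CPM to 3.00 ± 1.08 (log2 fold change -2.26 ± 0.33, adjusted p 0.0016, and -2.23 ± 0.33, adjusted p 0.00232). Mmp28 overlaps 1700020L24Rik on the opposite strand over 12.03% of its exonic bases, and that gene never exceeded 0.264 CPM.

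ADAMTS proteases were called in both directions. Of the 15 tested, 2 were called higher and 4 lower against MEF, and 6 higher and 2 lower against MyoD. Of all tested genes 37.6% were called against MEF, so the count of 6 there is near that share, and 33.9% against MyoD. The proteoglycanases, which cut versican and aggrecan, include the member that rose the most against MEF. Adamts20, a versican-cutting protease known for its role in pigment cell development, stood at 1.07, 0.322 and 0.830 CPM in MEF, 3.45, 3.97 and 9.38 in MyoD and 86.5, 74.0 and 64.5 in MyoD F/R/C. The 3 groups did not overlap and followed each other in that order. Its log2 fold change was 6.66 ± 0.58 against MEF (adjusted p 0.000266) and 3.75 ± 0.49 against MyoD (adjusted p 0.00143). Of its summed TPM in MyoD F/R/C, 70.1% was assigned to a protein-coding transcript and 23.1% to one with a retained intron.

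Adamts1, an abundant versican-cutting protease, stood at 2041, 1467 and 1337 CPM in MEF, 1994, 1035 and 1083 in MyoD and 524, 760 and 134 in MyoD F/R/C. It was called lower against MEF (-1.77 ± 0.57, adjusted p 0.0388) and not against MyoD (-1.54 ± 0.57, adjusted p 0.0668), although its MyoD F/R/C libraries lay below all others. The call was lost without MEF replicate 1 or 2, without MyoD replicate 2, without MyoD F/R/C replicate 1, or with the pair of groups fitted alone (adjusted p 0.0527 to 0.0876). Adamts15, another proteoglycanase of muscle and cartilage, stood at 1.91, 6.84 and 24.8 CPM in MEF, 2.01, 7.18 and 0.770 in MyoD and 71.6, 48.2 and 53.3 in MyoD F/R/C. All MyoD F/R/C libraries were above the other 6. It was called against MyoD (4.11 ± 1.03, adjusted p 0.0162, or 0.0573 without MyoD replicate 1) and not against MEF (2.37 ± 0.95, adjusted p 0.0795, or 0.0196 without MEF replicate 3).

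Adamts4, Adamts5 and Adamts9, which share the proteoglycanase role, were not called. Adamts5, the main aggrecanase of mouse cartilage, stood at 61.0, 48.5 and 280.0 CPM in MEF, 34.6, 22.7 and 124 in MyoD and 175, 187 and 123 in MyoD F/R/C. Replicate 3 was the highest library in MEF and in MyoD and the lowest in MyoD F/R/C, and the log2 fold changes were 0.32 ± 0.77 (adjusted p 0.771) and 1.42 ± 0.79 (adjusted p 0.192). Adamts9 stood at 58.5, 215 and 70.4 CPM in MEF, 146, 198 and 35.9 in MyoD and 57.0, 53.5 and 36.0 in MyoD F/R/C (adjusted p 0.169 and 0.136). Adamts4 averaged 51.8 ± 21.9, 31.4 ± 9.77 and 67.9 ± 17.5 CPM in the 3 groups (SD, n = 3 each), and all its MyoD F/R/C libraries were above those of MyoD (1.11 ± 0.38, adjusted p 0.051).

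The procollagen N-proteinases, which remove the amino-terminal propeptide of fibrillar collagens, split among themselves. Adamts2, the main enzyme for type I procollagen in skin, stood at 171, 79.9 and 214 CPM in MEF, 92.7, 53.1 and 41.7 in MyoD and 162, 201 and 194 in MyoD F/R/C. It was higher than in MyoD (1.57 ± 0.40, adjusted p 0.0173) and overlapped MEF (0.26 ± 0.39, adjusted p 0.631). The call was lost without MyoD replicate 2 (adjusted p 0.0663) or MyoD F/R/C replicate 3 (0.0503). Adamts14 stood at 32.2, 12.2 and 53.9 CPM in MEF, 8.82, 9.67 and 50.9 in MyoD and 185, 116 and 130 in MyoD F/R/C, all 3 above the 6 others. Its log2 fold change was 2.64 ± 0.77 against MyoD (adjusted p 0.0288), lost on leaving out MyoD replicate 1 or 2 or any MyoD F/R/C library (adjusted p 0.0534 to 0.0924). Against MEF it was 2.13 ± 0.75 (adjusted p 0.0522), and with the replicate block the adjusted p was 0.0109. Adamts3 went the other way, from 63.1, 27.7 and 7.80 CPM in MEF and 15.98, 9.63 and 1.20 in MyoD to 0.965, 2.188 and 0.288 in MyoD F/R/C. It was called against MEF (-4.83 ± 1.17, adjusted p 0.012) and not against MyoD (-2.95 ± 1.08, adjusted p 0.0643). Against MyoD, DESeq2 called it (adjusted p 0.00747), as did edgeR without MEF replicate 3 (0.0410) or MyoD replicate 3 (0.0237). Most other alternatives left that comparison uncalled.

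Adamts6 and Adamts10 act on fibrillin microfibrils, and both were called lower in both comparisons. Adamts10 stood at 184, 114 and 50.1 CPM in MEF, 108, 125 and 30.5 in MyoD and 25.01, 15.7 and 12.4 in MyoD F/R/C. The log2 fold changes were -2.71 ± 0.62 (adjusted p 0.0097) and -2.31 ± 0.61 (adjusted p 0.0201), and the second call was lost without MyoD replicate 1 or 2 or MyoD F/R/C replicate 2 or 3 (adjusted p 0.0540 to 0.0780). Adamts6 fell from 19.1 ± 8.61 CPM in MEF and 6.85 ± 5.62 in MyoD to 0.693 ± 0.523 in MyoD F/R/C (SD, n = 3 each), with log2 fold changes of -4.77 ± 0.88 (adjusted p 0.00392) and -3.29 ± 0.83 (adjusted p 0.0171). Without MyoD F/R/C replicate 3 the second had an adjusted p of 0.0589.

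Among the other ADAMTS genes, Adamts7, which cuts the cartilage protein Comp, stood at 8.37, 6.52 and 20.9 CPM in MEF, 8.32, 6.19 and 7.65 in MyoD and 37.8, 30.5 and 27.6 in MyoD F/R/C. All MyoD F/R/C libraries were above the 6 others, with log2 fold changes of 1.42 ± 0.41 (adjusted p 0.026) against MEF and 2.11 ± 0.42 (adjusted p 0.00698) against MyoD. In MyoD F/R/C, 24.01% of its summed TPM was assigned to a transcript annotated for nonsense-mediated decay and 21.02% to one with a retained intron. With counts from protein-coding transcripts alone, the change against MEF was 0.84 with an adjusted p of 0.185. That call was also lost without MEF replicate 1 or 2 or any MyoD F/R/C library (adjusted p 0.0504 to 0.0911). Adamts12 averaged 45.2 ± 37.4, 25.8 ± 19.9 and 30.9 ± 11.3 CPM (SD, n = 3 each) and was not called (adjusted p 0.56 and 0.795). Adamts17 reached 51.1 CPM in MEF replicate 1 and stayed under 8 CPM in the 8 other libraries. It was not called against MEF (adjusted p 0.0757), and with the replicate block its adjusted p was 0.0398. Adamts16 was called higher than MyoD (adjusted p 0.0478) on 17, 12 and 3 counts against 0, 1 and 0 counts. That call was lost under 11 alternatives, and MEF held 20, 11 and 0 counts.

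**Figure D3:**
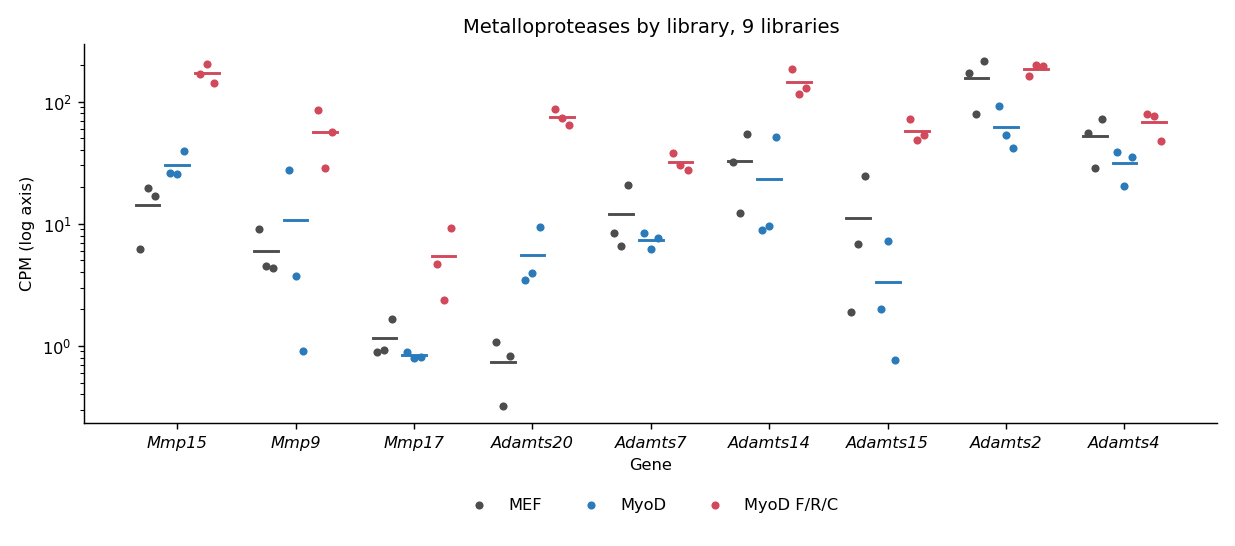
CPM per library (points, log axis) with group means (bars) for 9 proteases in the 3 groups of 3 libraries. The MyoD F/R/C points of Mmp15, Mmp9, Mmp17, Adamts20, Adamts7, Adamts14 and Adamts15 all lie above the 6 others, whereas those of Adamts2 and Adamts4 lie above MyoD and overlap MEF.

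The balance of the 3 families was set out in TPM, with no test, since the sums follow from the genes above. The 45 genes summed to 8411, 6536 and 6937 TPM in MEF, 8141, 5917 and 6066 in MyoD and 2060, 2100 and 1056 in MyoD F/R/C. The Timp genes took 50.2% to 63.4% of this sum in MEF, 49.3% to 74.9% in MyoD and 27.3% to 35.7% in MyoD F/R/C. The ratio of summed Timp to summed Mmp TPM was 1.64, 1.37 and 2.52 in MEF, 1.31, 1.46 and 4.59 in MyoD and 0.625, 0.546 and 0.749 in MyoD F/R/C. RNA of the inhibitors therefore exceeded that of the metalloproteases in all 6 MEF and MyoD libraries and in none of the MyoD F/R/C libraries. These are RNA levels, and neither protein nor enzyme activity was measured. In MEF the order of mean TPM was Timp2 (2199), Timp1 (1223), Mmp2 (1032), Adamts1 (689), Timp3 (635), Mmp14 (534) and Mmp3 (377). In MyoD F/R/C it was Timp2 (342), Mmp2 (319), Mmp3 (206), Adamts1 (171), Mmp14 (152), Timp1 (125), Timp3 (54.6), Mmp15 (52.9) and Adamts14 (43.0). Timp2 at 425, 381 and 220 TPM and Mmp2 at 280, 462 and 215 TPM overlapped there, whereas in MEF Timp2 (2036, 2087 and 2474 TPM) lay above Mmp2 (1610, 820 and 665 TPM).

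**Figure D4:**
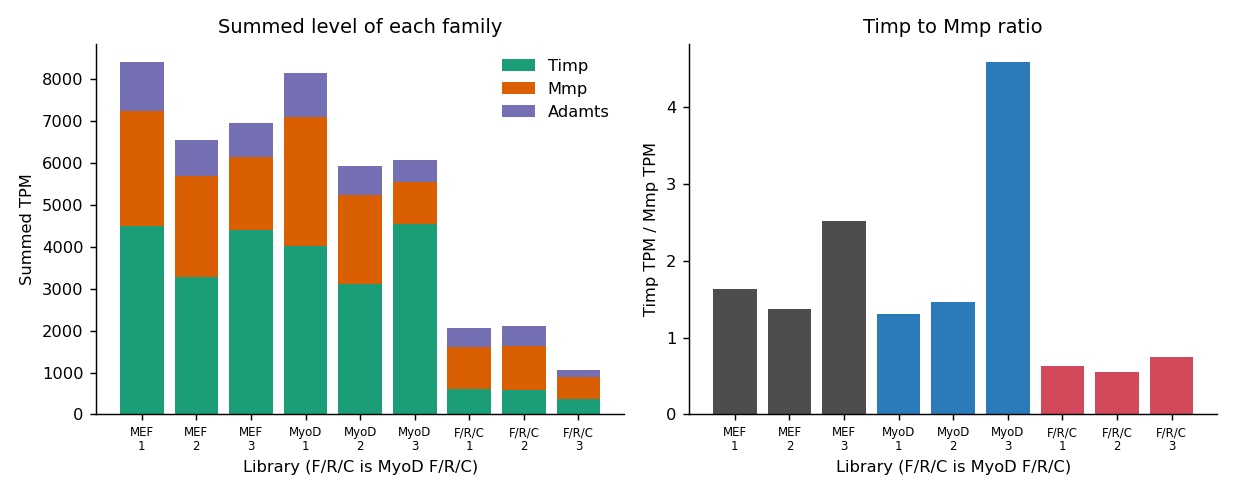
Left, summed TPM of the Timp, Mmp and Adamts genes (stacked bars) in each of the 9 libraries; right, the ratio of summed Timp to summed Mmp TPM per library. The MyoD F/R/C libraries hold 1056 to 2100 TPM in all and ratios of 0.546 to 0.749, below every MEF and MyoD library.

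Of 89 other genes in lists of activators, cofactors, substrates and regulators of these enzymes, 81 were tested. None was called in MyoD against MEF, where DESeq2 called 2. In MyoD F/R/C 4 were higher and 28 lower than in MEF, and 7 higher and 22 lower than in MyoD, where 19.5% of all tested genes were higher and 18.1% lower than in MEF, and 17.8% and 16.1% than in MyoD. The share called, without regard to direction, was thus near that of all genes (37.6% and 33.9%). By direction the lists differed from all genes. In both comparisons a larger share of the 81 was called lower, and a smaller share higher, than of all tested genes. That difference was not tested, the lists were chosen with earlier results known, and no cause is read from it. Fewer calls were made on leaving out 1 library (19 in all against MEF without MyoD F/R/C replicate 3, and 18 against MyoD without MyoD F/R/C replicate 2 or 3 and 19 without MyoD replicate 1). Among the 10 cofactors and regulators, 4 were lower than MEF (median of the list -1.76), where 18.1% of all tested genes were lower (median of all -0.04). They include Reck, a membrane-anchored inhibitor of Mmp2, Mmp9 and Mmp14, which stood at 133, 141 and 137 CPM in MEF, 125, 88.9 and 89.6 in MyoD and 20.3, 32.2 and 12.2 in MyoD F/R/C. Its log2 fold change was -2.67 ± 0.34 against MEF (adjusted p 0.00084) and -2.23 ± 0.33 against MyoD (adjusted p 0.00221).

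All 5 procollagen C-proteinases and enhancers were called in both comparisons, where 37.6% of all tested genes were called against MEF and 33.9% against MyoD. Bmp1, which removes the carboxy-terminal propeptide, stood at 423, 336 and 339 CPM in MEF, 331, 337 and 248 in MyoD and 142, 105 and 80.3 in MyoD F/R/C (log2 fold change against MEF -1.74 ± 0.26, adjusted p 0.00151). Its enhancer Pcolce fell further, from 1457, 1492 and 1131 CPM in MEF to 160, 125 and 105 in MyoD F/R/C (-3.39 ± 0.27, adjusted p 0.000227). Tll1 and Pcolce2 were also lower, and Tll2, a relative of Bmp1, was higher at 8.31, 5.24 and 2.64 CPM, against at most 0.0923 CPM in MEF (adjusted p 0.00116). Of 13 tested substrates 8 were lower than MEF and 1 was higher, where 18.1% of all tested genes were lower and 19.5% higher. Col1a2, a chain of type I collagen, stood at 15339, 4751 and 5898 CPM in MEF and at 1264, 1234 and 896 in MyoD F/R/C (-2.94 ± 0.54, adjusted p 0.00392), and Vwf, the substrate of Adamts13, was higher at 6.87 to 10.4 CPM against 0.279 to 1.20 (adjusted p 0.00272). Col1a2 is also among the fibroblast markers above.

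In the plasminogen system, whose proteases activate several metalloproteases, 2 of 8 were lower than MEF, near the 18.1% of all tested genes. Serpine2, an inhibitor of thrombin and of plasminogen activators, stood at 1051, 2601 and 1736 CPM in MEF and 499, 544 and 261 in MyoD F/R/C (-2.05 ± 0.44, adjusted p 0.00741). The activators Plat (adjusted p 0.0803 against MEF) and Plau (adjusted p 0.904) and the convertase Furin, which activates the membrane-bound metalloproteases (adjusted p 0.206), were not called. Plau was at 734 CPM in MyoD replicate 3 and at 22.3 to 282 CPM elsewhere, and without MEF replicate 3 its change against MEF turned from -0.21 to 1.26.

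For the smaller lists, 18.1% of all tested genes were called lower than MEF and 19.5% higher, and nothing is read from the counts alone. Pcsk5 (adjusted p 0.025) was the 1 of 4 convertases called lower, and Adam15 (adjusted p 0.000788) the 1 of 9 ADAM proteases. Adamtsl4 (adjusted p 0.00293) was 1 of 2 called lower among 7 ADAMTS-like proteins. Among 9 other matrix proteases 4 were lower, led by the collagen-cutting cathepsin Ctsk at 68.1, 87.1 and 107 CPM in MEF and 18.8, 23.2 and 16.7 in MyoD F/R/C (-2.16 ± 0.27, adjusted p 0.000788), and Mep1a was higher at 4.10 to 5.79 CPM against at most 0.0465 (adjusted p 0.000887). Of 11 AP-1 and Ets factors, some of which bind the AP-1 motif printed above, 1 was called against MEF, Etv4, which was lower (adjusted p 0.0373), and no Fos or Jun family gene was. Of 5 tested inducers Tgfb3 was higher (adjusted p 0.0438) and Tgfb1 lower (adjusted p 0.0256). The calls of Pcsk5, Etv4, Tgfb1 and Tgfb3 were each lost without MEF replicate 1 and without some other libraries.

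**Figure D5:**
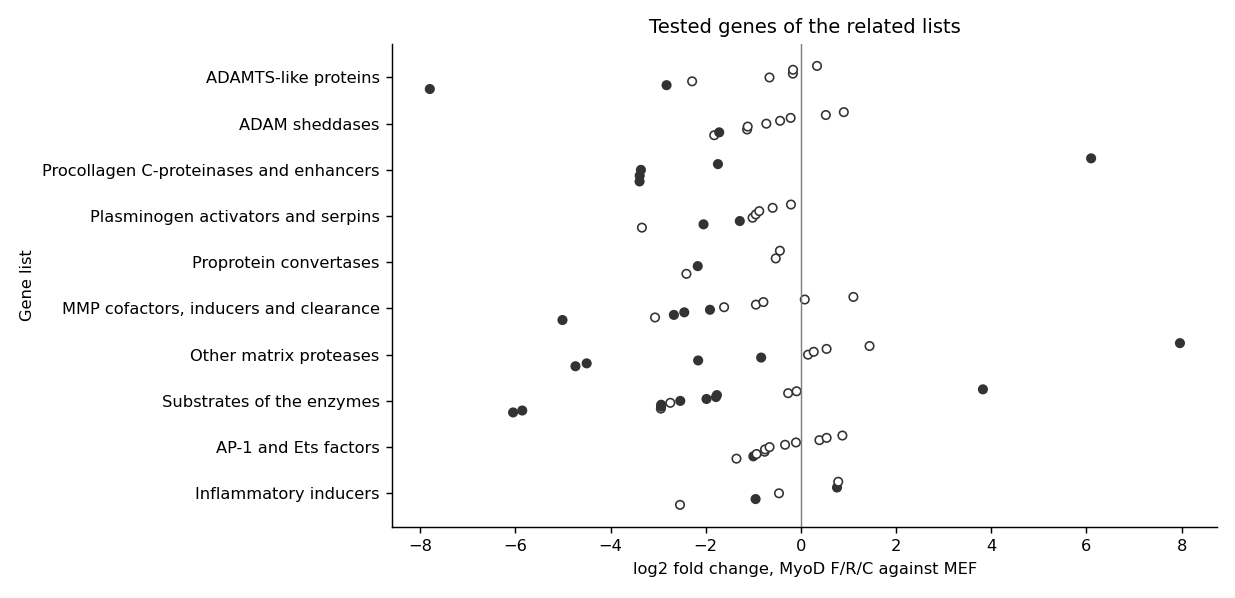
Log2 fold change in MyoD F/R/C against MEF (horizontal axis) of the 81 tested genes of 10 related lists (vertical axis), with filled points for an adjusted p under 0.05. Of the filled points 28 lie left of 0 and 4 right of it.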

How the data were processed

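The 9 libraries were made from polyadenylated RNA (TruSeq Stranded mRNA), per the labels' protocols. The submitters' processing notes name bcl2fastq 2.19, Trimmomatic 0.36, kallisto 0.44, edgeR 3.28 and GRCm38.p6. Which annotation and kallisto options were used, and whether strand was, is not given in the sources used here. For each transcript the authors deposited an estimated count from kallisto and a TPM value, per the file headers.

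Estimated counts were summed per gene with GENCODE M21 (121104 of 121843 transcripts matched), rounded, and tested with edgeR 4.0.16 in R 4.3.3. Low genes were removed by filterByExpr (count at least 10, total at least 15). Scaling was TMM, and 1 quasi-likelihood fit over 9 libraries gave 3 two-sided comparisons, with p-values adjusted by Benjamini and Hochberg. The SE is the absolute log2 fold change over the square root of F. The script was tested on simulated data. Mmp1a, annotated as a polymorphic pseudogene, is no member. The deposited TPM values were summed per gene to compare genes.

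The members and lists were chosen with earlier results of these data known. Members called or averaging at least 20 CPM were to be given per library for the 12 highest and by group means for the others. Values per library of Mmp9, Mmp10, Mmp15, Mmp16, Mmp17, Adamts3, Adamts7, Adamts14, Adamts15 and Adamts20, and the members not called below 20 CPM, were added after values were seen. Of each related list, the called gene of smallest adjusted p against MEF in each direction was named, and always Reck, Bmp1, Plat, Plau and Furin. A gene of the related lists is not reported here. Equal replicate numbers in MEF and MyoD F/R/C correlated at 0.101 to 0.151 in their deviations from the group means and in MEF and MyoD at 0.632 to 0.729, all above 0.1, so a replicate block is given for MEF comparisons where it changes a call. With 3 libraries against 3, an exact permutation test cannot give a two-sided p under 0.1. Alternatives were DESeq2 1.42.0, other scalings, filters and gene summaries, 2 groups alone, the block, and each library left out.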

Additional observations from a re-analysis of the deposited data

How the results depend on the processing

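Leaving out 1 library gave 0 members called in MyoD against MEF, 14 to 21 in MyoD F/R/C against MEF and 13 to 21 against MyoD, and the other settings gave 0 to 1, 17 to 23 and 17 to 24. DESeq2 gave the 1 member call in MyoD against MEF. Over the related lists, leaving out 1 library gave 0 to 1, 19 to 37 and 18 to 30 calls, and DESeq2 gave 2 in MyoD against MEF. Equal replicate numbers in MyoD and MyoD F/R/C correlated at 0.0837, 0.119 and 0.164, each above every unequal pair, but not all past the 0.1 taken for pairing. With the replicate block 24 members were called in that comparison, 11 higher and 13 lower, and 31 genes of the related lists. The 6 members called there with the block and not in the fit without it were Mmp9, Mmp24, Adamts1, Adamts3, Adamts4 and Adamts5 (adjusted p 0.00599 to 0.0351). The block gave 21 members against MEF and 0 in MyoD against MEF. It changed no call there beyond those given beside the results among the members. Scaling by library totals alone moved the median log2 fold change of all genes to 0.09, -0.13 and -0.20 in the 3 comparisons and gave 0, 19 and 18 member calls.

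Values not called in the main test changed sign on leaving out 1 library as follows, and the cause was not tested. Against MEF, log2 fold changes ranged from -0.95 to 0.23 for Mmp3, from -0.13 to 1.51 for Adamts5, from -0.96 to 0.32 for Adamts12, from -0.11 to 0.52 for Adamts2 and from -0.76 to 1.26 for Plau. Against MyoD they ranged from -0.16 to 1.06 for Adamts12, from -1.91 to 1.13 for Plau and from -0.32 to 0.16 for Furin. For Plau the block gave 0.73 against MEF, and leaving out MEF and MyoD replicates 3 together gave 1.36 and 1.15. Leaving out those 2 libraries also gave 1.61 for Adamts5 and 0.62 for Adamts2 against MEF, and 0, 37 and 31 calls over the related lists. Depth limits the 11 untested members, and Adamts16, Mmp12 and Mmp24 among the tested ones.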
